A study of Homo sapiens with 6 samples.

Results

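Shelterin and CST are the protein complexes that sit on human telomeres, and their 9 genes were followed here: TERF1, TERF2, TERF2IP, POT1, TINF2 and ACD for shelterin, and CTC1, STN1 and TEN1 for CST. They were chosen by gene name from the deposited table, which holds 33706 genes, and each of the 9 had 1 row. The libraries came from ES2 cells, a human ovarian cancer line, after 7 days of culture, with 1 library in each of 6 groups. The cultures were labelled R, TR, GR, T and G (G4 in its description), and Control, which received no drug. The agents named in the labels are T-oligo, a DNA oligonucleotide with telomere sequence, and RHPS4, a small molecule that binds G-quadruplexes. Which letter stands for which agent is not written out, so the letters are used as they are, and it is a reading of those letters, not a statement of the labels, that TR and GR are R added to T and to G. The background of a library is then T, G or neither.

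Human telomeres end in a repeated TTAGGG sequence with a single-stranded 3′ overhang. TERF1 and TERF2 (TRF1 and TRF2) bind the double-stranded repeat as homodimers, and TERF2IP (RAP1) binds TERF2. POT1 binds the single-stranded overhang together with ACD (TPP1), which also recruits telomerase, and TINF2 (TIN2) ties ACD and POT1 to TERF1 and TERF2. The complex keeps chromosome ends from being treated as DNA breaks. CTC1, STN1 and TEN1 bind single-stranded DNA, limit telomerase and bring in DNA polymerase alpha-primase, which fills in the opposite strand.

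Library totals lay between 73213048 and 83976498 counts, and every one of the 9 genes had counts in each library. With 1 library a group, no single pair has a replicate check, and the p-values below measure only the spread between these 6 libraries. Titles name ES2 throughout, but the source names of R, TR, GR and G name SKOV3, also from ovarian cancer. ERBB2, which SKOV3 carries amplified, was at 0.146 to 0.721 FPKM in the 6 libraries, and CDKN2A at 74.35 to 146 FPKM. FPKM, the authors' deposited unit, counts sequenced fragments relative to transcript length and library depth. The epithelial markers EPCAM, CDH1 and MUC16 stayed under 0.1 FPKM in all libraries, whereas all 6 mesenchymal markers reached 1 FPKM in a library. Of 10 measured epithelial markers, 5 reached 1 FPKM in a library: KRT8, KRT18, KRT7, MUC1 and CLDN4. The sum of the 10 was 259 to 501 FPKM with R, against 200.1 to 291 without. The mesenchymal sum was 1492 to 2347, against 1322 to 1688. Of the 5 leukocyte and 5 endothelial markers in the table, 1 each reached 1 FPKM. These were CD68 (19.0 FPKM in GR to 63.5 in T) and CDH5 (5.75 FPKM in R to 19.2 in Control). PTPRC, ITGAM, VWF and TEK stayed under 0.1 FPKM. The leukocyte sum, mostly CD68, was 19.3 to 50.8 with R, against 38.9 to 63.6 without. The endothelial sum, mostly CDH5, was 6.19 to 10.6, against 13.2 to 19.6. The part of these markers in the results was not tested. In these bulk libraries, fewer cells with a transcript and less of it per cell cannot be told apart.

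RefSeq promoter windows (GRCh38.p14, 250 bases before to 50 after the start) were searched for 5 of the 9 genes: TERF2IP, POT1, TINF2, ACD and STN1. Of these, TERF2IP, POT1 and STN1 are shown because in FPKM TERF2IP and STN1 were higher and POT1 lower with R in every background, and because the study's agents relate to the telomere repeat and to G-quadruplexes. The windows are TERF2IP at chr16:75647523-75647822 (plus strand), POT1 at chr7:124929776-124930075 (minus strand) and STN1 at chr10:103918135-103918434 (minus strand), printed 5′ to 3′ along the gene. Capitals mark, in POT1, the telomere repeat TTAGGG in any of its 6 rotations and, in TERF2IP and STN1, a G-quadruplex pattern of 4 runs of GGG or longer separated by 1 to 7 bases. Both were searched on both strands, matches may overlap, and the motifs were chosen after the windows had been seen.
TERF2IP: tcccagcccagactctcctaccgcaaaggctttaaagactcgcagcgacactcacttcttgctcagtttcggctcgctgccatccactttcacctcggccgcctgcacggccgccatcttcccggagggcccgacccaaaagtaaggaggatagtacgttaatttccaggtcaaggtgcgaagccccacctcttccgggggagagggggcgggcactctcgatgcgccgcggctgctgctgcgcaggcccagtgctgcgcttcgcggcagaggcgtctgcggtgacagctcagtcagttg
POT1: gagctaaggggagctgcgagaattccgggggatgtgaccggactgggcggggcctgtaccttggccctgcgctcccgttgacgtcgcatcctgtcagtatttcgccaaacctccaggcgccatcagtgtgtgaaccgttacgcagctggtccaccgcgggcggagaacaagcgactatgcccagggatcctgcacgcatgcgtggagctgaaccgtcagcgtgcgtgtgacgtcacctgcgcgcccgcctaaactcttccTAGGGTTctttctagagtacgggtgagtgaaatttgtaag
STN1: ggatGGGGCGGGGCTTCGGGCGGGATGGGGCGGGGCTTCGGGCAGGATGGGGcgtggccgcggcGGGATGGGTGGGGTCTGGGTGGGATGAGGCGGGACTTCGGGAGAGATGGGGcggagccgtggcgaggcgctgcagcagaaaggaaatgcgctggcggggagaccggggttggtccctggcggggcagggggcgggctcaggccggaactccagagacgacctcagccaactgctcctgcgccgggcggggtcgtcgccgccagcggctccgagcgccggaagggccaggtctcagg
The STN1 window had the G-quadruplex pattern over 99 of its 300 bases, the ACD window over 29, and the TERF2IP, POT1 and TINF2 windows had none. Of 35116 promoter windows of the same length, 25.0% held this pattern. The POT1 window had 2 overlapping repeat rotations covering 7 bases, the other 4 genes had none, and 30.9% of all windows held at least 1. These matches describe letters only.

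R was compared with its absence in 3 pairs that share no library: with neither T nor G (R against Control), with T (TR against T) and with G (GR against G). The source names differ in R against Control and in TR against T, and are the same in GR and G. Where they differ, R and the source-name line cannot be told apart. TERF2IP was higher and CTC1 lower with R in all 3 pairs. STN1 was higher by less in all 3. POT1 and TERF1 were lower in all 3 as FPKM, but with median-ratio scaling their log2 ratios in R against Control were 0.13 and 0.03. No member passed the test, an additive edgeR quasi-likelihood model of background and R over the 6 libraries with Benjamini-Hochberg adjustment over 20922 genes. It called 2.5% of all genes for R, against 0 of the 9 members. TERF2IP, CTC1 and STN1 had an unadjusted p under 0.05, 3 of 9, a share close to the 27.2% of all genes. DESeq2 with the same design called the same 3 members, beside 19.3% of all genes. The median log2 fold change of the 9 members was 0.16, beside -0.06 for all genes tested.

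**Figure D1:**
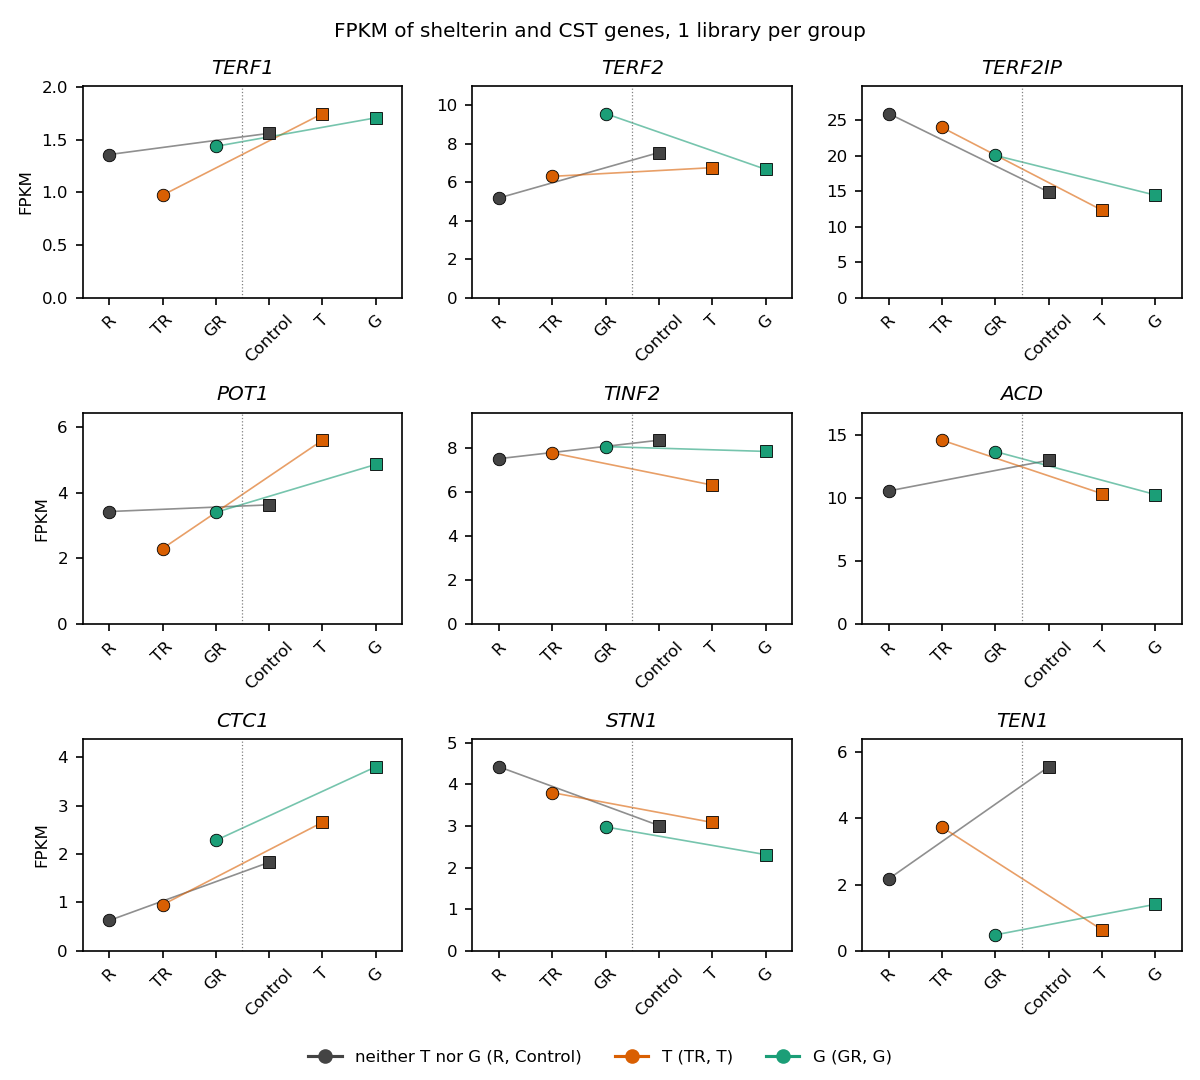
FPKM of each gene (vertical axes, linear from 0) in R, TR, GR, Control, T and G, 1 point per library, with lines joining the libraries of 1 background. TERF2IP lies between 20.05 and 25.9 FPKM with R, above all libraries without R, while CTC1 is lower with R along each line.

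TERF2IP (ENSG00000166848, chromosome 16, 75647773 to 75761872, plus strand), the partner of TERF2, was the most abundant member per length. It had 25.9, 24.0 and 20.1 FPKM in R, TR and GR, against 14.9, 12.3 and 14.45 FPKM in Control, T and G. Every library with R was above every library without it. The log2 ratio of FPKM + 1 was 0.71 ± 0.23 (SD, n = 3 pairs), with 0.76 in R against Control, 0.91 in TR against T and 0.45 in GR against G. The fitted log2 fold change was 0.95 (SE 0.24, edgeR adjusted p = 0.0642; DESeq2 adjusted p = 0.00229). An exact two-sided permutation test of 3 libraries against 3 gave p = 0.1, the smallest it can give. With a trend on GC content and transcript length removed, the mean ratio of the 3 pairs was 0.61 ± 0.19.

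TERF2 (ENSG00000132604, chromosome 16, 69355567 to 69408571, minus strand) had 5.18, 6.30 and 9.56 FPKM in R, TR and GR, against 7.54, 6.76 and 6.67 FPKM in Control, T and G. The libraries overlapped, with R the lowest and GR the highest of the 6. Its ratio was -0.47 in R against Control, -0.09 in TR against T and 0.46 in GR against G, and -0.255, 0.19 and 0.53 in these pairs with median-ratio scaling. The fitted log2 fold change for R was 0.16 (SE 0.25, adjusted p = 0.714). Within a library, the log2 ratio of TERF2IP over TERF2, each as FPKM + 1, was 2.12, 1.775 and 0.995 in R, TR and GR, against 0.90, 0.78 and 1.01 in Control, T and G. R and TR stood apart, GR did not, and the exact two-sided permutation p was 0.2.

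TERF1 (ENSG00000147601, chromosome 8, 73008856 to 73048122, plus strand) was the least abundant shelterin gene per length. It had 1.36, 0.974 and 1.44 FPKM in R, TR and GR, against 1.56, 1.75 and 1.71 FPKM in Control, T and G. The 2 sets did not overlap, but they did after scaling by median-ratio size factors, where the mean difference on the log2 scale was -0.12 in place of -0.25. The fitted log2 fold change for R was -0.23 (SE 0.24, adjusted p = 0.568). The table lists 6 pseudogene copies of TERF1, whose summed counts lay between 16 and 80 per library, against 1305 to 2257 counts for TERF1. How reads matching both were assigned was not tested.

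Among all 13259 genes with at least 1 FPKM in a library, 32.1% had non-overlapping values with and without R, 13.5% higher and 18.7% lower with R. Of the 9 members 3 did, TERF2IP higher and TERF1 and POT1 lower, a share near that background. With median-ratio scaling it was 1 of 9, TERF2IP, beside 33.3% of all genes.

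**Figure D2:**
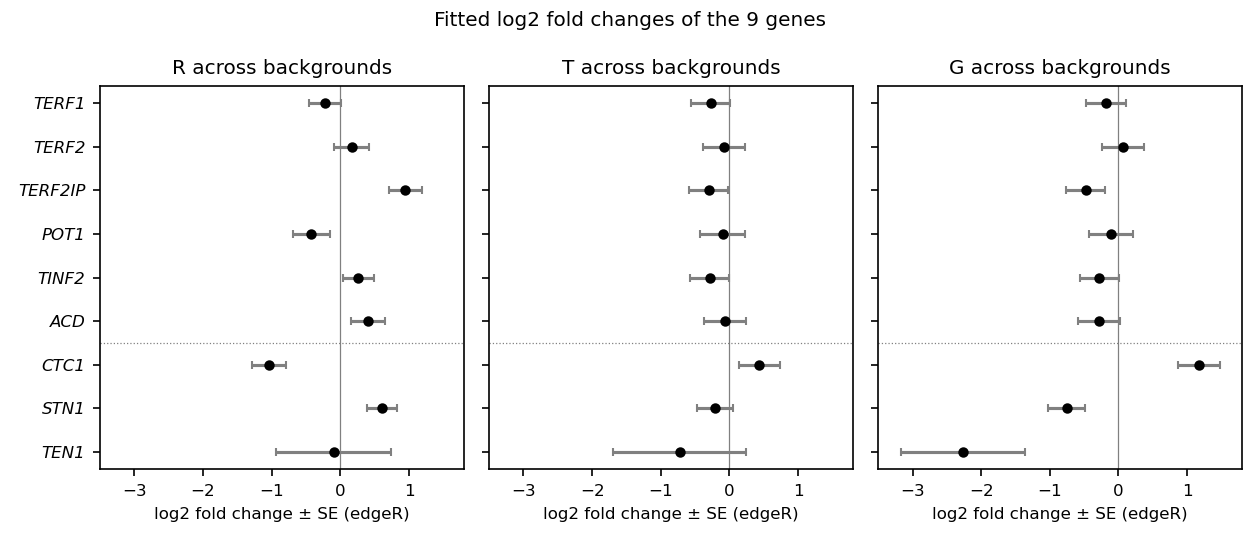
Fitted log2 fold changes (horizontal axes, log2 scale) of the 9 genes for R, T and G across backgrounds, with bars of 1 SE derived from the edgeR F statistic. For R, TERF2IP is at 0.95 and CTC1 at -1.04, and no gene passes the adjusted threshold in any panel.

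POT1 (ENSG00000128513, chromosome 7, 124822386 to 124929954, minus strand), the overhang-binding subunit, took both its highest and its lowest value beside T. It had 3.43, 2.30 and 3.40 FPKM in R, TR and GR, against 3.63, 5.59 and 4.86 FPKM in Control, T and G. The highest value was in T, the lowest in TR, and the sets with and without R did not overlap, although they did with median-ratio scaling. The ratio was -0.998 in TR against T, just short of 2-fold, -0.41 in GR against G and -0.07 in R against Control. The fitted log2 fold change for R was -0.42 (SE 0.27, adjusted p = 0.335), -0.153 without T or TR and -0.69 without Control or R. POT1 has the lowest GC content of the 9 transcripts (37.6%), and the ratios of TR against T followed GC content across genes (Spearman 0.446, a description). With that trend removed the ratio in TR against T was -0.55 and the mean of the 3 pairs -0.24 ± 0.27.

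ACD (ENSG00000102977, chromosome 16, 67657512 to 67660760, minus strand), the partner of POT1, had 10.6, 14.6 and 13.7 FPKM in R, TR and GR, against 13.0, 10.4 and 10.3 FPKM in Control, T and G. The ratio was 0.46 in TR against T and 0.38 in GR against G. In R against Control it was -0.28, and -0.045 with median-ratio scaling. The fitted log2 fold change was 0.41 (SE 0.25, adjusted p = 0.327). ACD is GC-rich (61.8%), and with the GC and length trend removed the ratio in TR against T was 0.02 and the mean of the 3 pairs -0.05 ± 0.21. The log2 ratio of ACD over POT1 was 1.39, 2.24 and 1.74 in R, TR and GR, against 1.60, 0.79 and 0.95 in Control, T and G. The values overlapped through R and Control (exact two-sided permutation p = 0.2).

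TINF2 (ENSG00000092330, chromosome 14, 24238286 to 24242663, minus strand), the bridge of the complex, had the narrowest range of FPKM. It had 7.54, 7.80 and 8.09 FPKM in R, TR and GR, against 8.38, 6.33 and 7.87 FPKM in Control, T and G, a highest value 1.32 times the lowest. The fitted log2 fold change for R was 0.26 (SE 0.23, adjusted p = 0.498). TINF2 over TERF1 differed by 0.30 on the log2 scale between libraries with and without R (exact two-sided permutation p = 0.2), and TINF2 over ACD by -0.13 (exact p = 0.4).

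**Figure D3:**
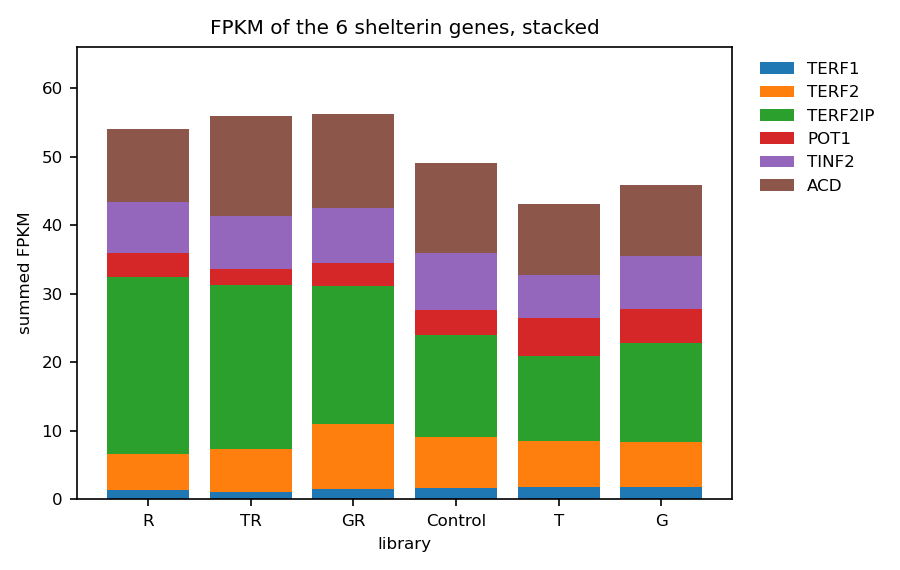
Stacked FPKM of the 6 shelterin genes per library (vertical axis, linear from 0). The sums are 54.0, 56.0 and 56.2 FPKM in R, TR and GR, against 49.0, 43.1 and 45.8 FPKM in Control, T and G, with TERF2IP taking the largest segment in each.

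The summed FPKM of the 6 shelterin genes was higher in the 3 libraries with R. Of these genes only TERF2IP was itself higher in every library with R than in every library without it. In FPKM the values of TERF2, TINF2 and ACD overlapped, and those of POT1 and TERF1 were lower with R. TERF2IP made up 48.0%, 42.9% and 35.7% of the sum in R, TR and GR, against 30.4%, 28.6% and 31.5% in Control, T and G. POT1 made up 6.34%, 4.11% and 6.05%, against 7.40%, 13.0% and 10.6%. TERF1 contributed the smallest segment in each library, between 1.74% and 4.06%.

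CTC1 (ENSG00000178971, chromosome 17, 8224815 to 8248058, minus strand), the largest CST subunit, varied over a 6.05-fold range. It had 0.628, 0.952 and 2.28 FPKM in R, TR and GR, against 1.83, 2.66 and 3.802 FPKM in Control, T and G. It was lower with R in each background, although GR lay above Control. The log2 ratio of FPKM + 1 was -0.75 ± 0.18 (SD, n = 3 pairs), and the fitted log2 fold change -1.04 (SE 0.25, edgeR adjusted p = 0.0585; DESeq2 adjusted p = 0.00234). Leaving out G or GR, which removes that pair, brought the edgeR adjusted p to 0.0338 and 0.0413, in fits that called 2231 and 2031 of all genes in place of 523. Without any of the other 4 libraries it stayed above the threshold.

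STN1 (ENSG00000107960, chromosome 10, 103856806 to 103918332, minus strand) had 4.42, 3.802 and 2.98 FPKM in R, TR and GR, against 3.01, 3.09 and 2.31 FPKM in Control, T and G. Each library with R was above its own partner, and GR was below Control and T. The ratio was 0.31 ± 0.11 (SD, n = 3 pairs), and 0.19 ± 0.17 with the GC and length trend removed, where TR against T stood at -0.003. The fitted log2 fold change was 0.61 (SE 0.22, edgeR adjusted p = 0.123; DESeq2 adjusted p = 0.0494). STN1 over CTC1 was 1.735, 1.299 and 0.277 in R, TR and GR, against 0.50, 0.16 and -0.54 in Control, T and G. It was higher with R in each pair (exact two-sided permutation p = 0.2, a test that ignores the pairs).

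TEN1 (ENSG00000257949, chromosome 17, 75979240 to 76000586, plus strand), the smallest CST subunit, had the widest range. It had 2.17, 3.73 and 0.485 FPKM in R, TR and GR, against 5.55, 0.637 and 1.41 FPKM in Control, T and G, an 11.5-fold span with no order by R. The ratio was -1.04 in R against Control, 1.53 in TR against T and -0.70 in GR against G, and the fitted log2 fold change for R was -0.10 (SE 0.83, adjusted p = 0.957). The readthrough gene TEN1-CDK3 (ENSG00000261408, 75979231 to 76005998 on the same strand) contains all of TEN1 by its coordinates and joins it to CDK3, and the sources used here do not say how reads were divided between them.

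**Figure D4:**
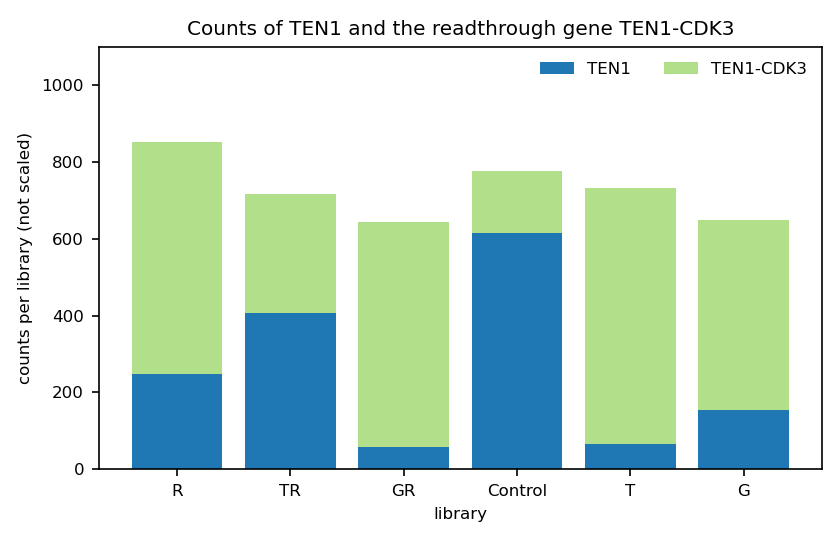
Stacked counts of TEN1 and TEN1-CDK3 per library (vertical axis, linear from 0, not scaled for depth). The sums lie between 644 and 852 counts, while TEN1 alone runs from 57 in GR to 614 in Control.

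TEN1-CDK3 mirrored TEN1. It had 603, 308 and 587 counts in R, TR and GR, against 164, 668 and 495 counts in Control, T and G, where TEN1 had 249, 408 and 57, against 614, 65 and 154. The share of TEN1 in the 2 together was 29.2% in R (95% Wilson interval 26.3 to 32.4), 57.0% in TR (53.3 to 60.6) and 8.85% in GR (6.89 to 11.3). It was 78.9% in Control (75.9 to 81.6), 8.87% in T (7.02 to 11.2) and 23.7% in G (20.6 to 27.2). The sum was 10.2, 8.98 and 7.67 CPM (counts scaled to the library total) in R, TR and GR, against 9.62, 10.0 and 8.25 in Control, T and G, a 1.33-fold span, against 11.5-fold for TEN1 FPKM. With the 2 genes summed, a choice made after seeing the data, the fitted log2 fold change for R was 0.14 (adjusted p = 0.759). The values of TEN1 alone are therefore uncertain.

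**Figure D5:**
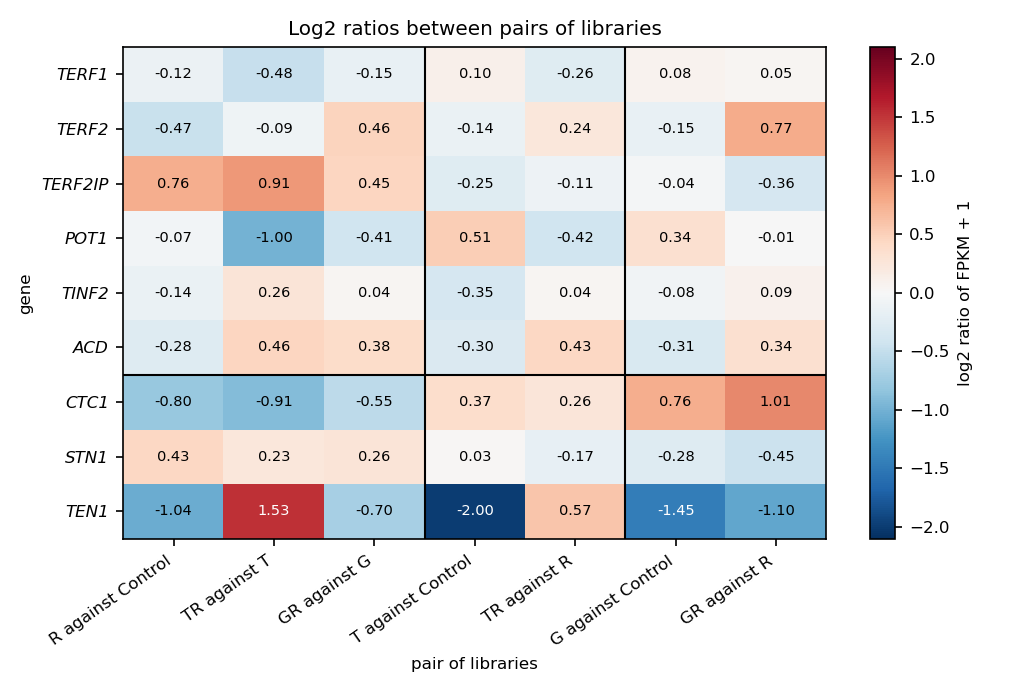
Log2 ratios of FPKM + 1 of the 9 genes (rows) in 7 pairs of libraries (columns), with R on the left, T in the middle and G on the right. TEN1 has the lowest value, -2.00 in T against Control, and the highest, 1.53 in TR against T.

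Beside single genes, pairs of libraries were read at 2-fold on the log2(FPKM + 1) scale, which understates changes of low genes and has no test with 1 library a group. In R against Control 1 of 9 members was at least 2-fold different, beside 10.4% of genes, and in TR against T 1 of 9, beside 17.9%, TEN1 in both. With median-ratio scaling the 1 member in R against Control was TERF2IP (1.004), and TEN1 stood at -0.872. The share of all genes at 2-fold was not counted under that scaling. In GR against G it was 0 of 9, beside 3.55%. At 1.5-fold TERF2IP and CTC1 joined TEN1 in R against Control, 3 of 9 beside 31.1%. In TR against T it was TERF2IP, POT1, CTC1 and TEN1, 4 of 9 beside 44.7%, and in GR against G it was TEN1, 1 of 9 beside 17.5%. The median ratio of all genes was -0.12, -0.17 and -0.01 in these pairs, and 0.08, 0.08 and 0.06 with median-ratio scaling.

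Cell cycle and mitochondrial lists were read in the same pairs. The 30 mitosis genes, 0 of them called by edgeR, had a median ratio of 0.22 in R against Control, 1.42 in TR against T and 0.48 in GR against G, and -1.50 in T against Control. All 13 mitochondrial mRNAs were called lower with R (edgeR, median log2 fold change -4.69). The part of either in the values of the 9 members was not tested.

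For T the pairs were T against Control, without R, and TR against R, with it. The test called 0 of the 9 members, beside 0.00478% of all genes, with 0 members and 3.67% of genes at an unadjusted p under 0.05 and 0 members by DESeq2, beside 0.134% of genes. POT1 had 2.30 and 5.59 FPKM in TR and T, against 3.43 and 3.63 FPKM in R and Control, ratios of -0.42 in TR against R and 0.51 in T against Control. ACD had ratios of 0.43 and -0.30 in these pairs. The ratios followed GC content across genes, with a Spearman value of 0.617 in TR against R and -0.3 in T against Control. With the GC and length trend removed they were -0.103 and 0.33 for POT1 and 0.21 and -0.13 for ACD. The differences between the pairs were not tested. CTC1, the 1 member with a positive fitted value, stood at 0.44 (SE 0.30, edgeR adjusted p = 1.0), with a ratio of 0.37 without R and 0.26 with it. In TR against R CTC1 stayed under 1 FPKM in both libraries and fell outside the genes counted there, which left 8 members. Of these 0 were 2-fold different, beside 0.999% of genes, and 0 were 1.5-fold different, beside 6.7%. In T against Control it was 1 of 9 at both thresholds, TEN1, beside 5.03% at 2-fold and 20.6% at 1.5-fold.

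G was compared in G against Control and GR against R. CTC1 was higher with G in both, at 3.802 against 1.83 FPKM and at 2.28 against 0.628 FPKM, ratios of 0.76 and 1.012. Its fitted log2 fold change was 1.18 (SE 0.30, edgeR adjusted p = 0.292; DESeq2 adjusted p = 0.0289). STN1 was lower in both, at 2.31 against 3.01 FPKM and at 2.98 against 4.42 FPKM, with a fitted value of -0.76 (SE 0.27, adjusted p = 0.387). TEN1 was lower in both as well (-1.45 and -1.10), with a fitted value of -2.27 (SE 0.91, edgeR adjusted p = 0.404). That fitted value ran between -3.77 without G, where GR is the only library with G, and -1.06 without Control. The sum of TEN1 with TEN1-CDK3 had ratios of -0.22 and -0.42. The edgeR test called 0 of 9 members for G, beside 0.0335% of all genes. At an unadjusted p under 0.05 it was these 3, beside 11.9%, and DESeq2 called CTC1, beside 2.27%. TERF2 had 9.56 FPKM in GR against 5.18 in R (0.77) and 6.67 in G against 7.54 in Control (-0.15).

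At least 2-fold, G against Control had 1 of 9 members, TEN1, beside 3.96% of genes, and GR against R had 2 of 9, CTC1 and TEN1, beside 8.07%. At 1.5-fold CTC1 joined TEN1 in G against Control, 2 of 9 beside 16.9%, and TERF2 joined the other two in GR against R, 3 of 9 beside 28.4%. The median ratio of all genes in GR against R was 0.22, and -0.09 with median-ratio scaling, under which CTC1 stood at 0.82 and TERF2 at 0.43. The source names differ between G and Control and are the same in GR and R.

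Related telomere genes were read from lists chosen with earlier results known, and none of their members was called for R, T or G. Of 12 tested telomerase genes 5 had a positive fitted value for R, with a median of -0.20. TERT, the catalytic subunit, had 0.406, 0.601 and 0.509 FPKM in R, TR and GR, against 0.899, 1.10 and 1.27 FPKM in Control, T and G (log2 fold change -0.91, adjusted p = 0.111). NHP2, a protein of the telomerase ribonucleoprotein, stood at 0.79, NAF1, an assembly factor, at -0.76 and the ATPase RUVBL2 at 0.55. Of 30 shelterin-associated and telomere-binding genes 14 were positive for R, with a median of -0.20. The lowest fitted values were those of NR2C2, a nuclear receptor, at -1.08, the nuclease subunit ERCC4 at -1.03, the helicase WRN at -1.02 and MRE11, the nuclease of the MRN complex, at -1.01 (adjusted p between 0.0707 and 0.0832). RAD50 and NBN, the partners of MRE11 and named after their values were seen, stood at -0.96 and -0.99.

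DNA polymerase alpha-primase, the enzyme that CST brings to telomeres, was read as well. The fitted values for R were -0.25 for PRIM1, -0.23 for POLA1, 0.15 for PRIM2 and -0.12 for POLA2, with a median of -0.18, beside -0.06 for all genes. With T all 4 were negative, with a median of -0.67 and POLA2 at -1.03, beside a median of -0.63 for 30 S phase genes, none of them called by edgeR. POLA2 had 4.03 and 2.13 FPKM in TR and T, against 4.05 and 8.64 FPKM in R and Control.

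The genes whose profiles over the 6 libraries were most like those of the 3 members with the widest range were found by the root mean square difference of centred log2(FPKM + 1) among 7532 genes. For TERF2IP they were ASB3 (0.04), ATP5IF1 (0.05), an inhibitor of the mitochondrial ATP synthase, and C12orf75 (0.05). For CTC1 they were DDX12B (0.07), RNF213 (0.08) and the zinc transporter SLC30A7 (0.09). For TEN1 the nearest were HBD (0.21), HMGB1P5 (0.43) and JUN (0.44), at larger distances. These values are a description.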

How the data were processed

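Per the labels' protocols, oligo(dT)-selected mRNA of ES2 cultures was made into strand-marked paired-end libraries. Tools listed in the submitters' processing notes, with no roles, are HISAT2 2.2.1, cutadapt 1.9, edgeR, DESeq2 and StringTie 2.1.6; the sources used here do not state build, annotation or the strand setting of the counting. The authors' deposited counts are whole numbers per gene, and the relative depth behind their deposited FPKM values follows the count totals. Of the gene IDs 92.6% are in GENCODE 29, and 99.89% of those overlap its GRCh38 coordinates, so the table's coordinates are printed.

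Counts were fitted with edgeR 4.0.16 in R 4.3.3 (quasi-likelihood, TMM, filterByExpr; background (T, G or neither) plus R; 20922 genes, 2 residual degrees of freedom, threshold 0.05). With 1 library a group, the 2 residual degrees of freedom hold both library spread and any difference in R between backgrounds. These cannot be told apart. The SE of an edgeR fold change was derived as its absolute log2 value over the square root of the quasi-likelihood F statistic. Pair ratios are log2(FPKM + 1) differences among genes with at least 1 FPKM in either library. Alternatives were DESeq2 1.42.0, other scaling, filter and pseudocount, GC and length trend removal, a source-name term and leaving out libraries. The edgeR and trend steps were tested on simulated data. For edgeR the simulated counts held changes for R only, without effects of T or G, unlike the real libraries. Wilson intervals and floors (3 counts, at most 4.1e-06% of a library) cover counting error only. No 2 libraries agreed within sampling noise (smallest chi-square per degree of freedom 93.1). All members are named. Related lists add up to 4 genes each with the largest fitted value for R, and 3 members get their 3 nearest profiles. Members and lists were chosen with earlier results of these data known. Several genes overlap others on the opposite strand (TERF2 and CYB5B, POT1 and POT1-AS1, TINF2 and GMPR2, ACD and CARMIL2, CTC1 and PFAS), and TERF2 and STN1 overlap an unnamed gene on their own strand; such reads may be shared.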

Additional observations from a re-analysis of the deposited data

Results flagged for a closer look

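The values below lie at least 1.3-fold in opposite directions in different backgrounds for the same factor. Each rests on 1 library a group, and the difference between backgrounds was not tested. TERF2 had a log2 ratio of -0.47 in R against Control and 0.46 in GR against G. With median-ratio scaling the first was -0.255, under 1.3-fold. POT1 had one of 0.51 in T against Control and of -0.42 when TR was set against R. With the GC and length trend removed they were 0.33 and -0.103, both under 1.3-fold. TEN1 had ratios of -1.04 in R against Control, 1.53 in TR against T and -0.70 in GR against G. For T, TEN1 had -2.00 without R and 0.57 with R. Summed with TEN1-CDK3, it had 0.09, -0.16 and -0.10 in the 3 R pairs and 0.06 and -0.19 in the 2 T pairs.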

How the results depend on the processing

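With 1 library a group, no interval covers replicates; counting error is widest for TEN1 (57 counts in GR). The labels give no replicate numbers to block on. The main model and the 3 pairs for R match libraries by background (T, G or neither), while the exact permutation tests ignored that matching. For R, TERF2IP, CTC1 and STN1 kept the direction of their fitted values under every alternative run. The edgeR count of all genes called for R, T and G was 523, 1 and 7, against 3721, 28 and 420 with DESeq2, 24, 0 and 0 without the filter and 82, 42 and 354 with the source-name line as a term; for R it was 66 to 2231 with a library left out. The number of members called for R was 3 with DESeq2 and 0 to 1 when a library was left out (CTC1 without G or GR). For G it was 1 with DESeq2 (CTC1) and 1 with the source-name line as a term (TEN1). With that term, R rests on GR against G, and TERF2IP stood at 0.55 and CTC1 at -0.65 (adjusted p = 1.0 each). Without the library G, GR is the only library with G, and the fitted value of TEN1 for G was -3.77. With a library left out, signs were unstable for R in TERF2 (-0.052 to 0.415) and TEN1 (-1.29 to 0.82), for T in TERF2 (-0.43 to 0.32), POT1 (-0.51 to 0.31), ACD (-0.42 to 0.32) and TEN1 (-3.36 to 0.78), and for G in TERF2 (-0.30 to 0.43), POT1 (-0.50 to 0.33) and ACD (-0.639 to 0.089). Without a sign change, R ran from -0.69 to -0.153 for POT1, -0.34 to -0.079 for TERF1, 0.088 to 0.37 for TINF2 and 0.20 to 0.66 for ACD, and G from -3.77 to -1.06 for TEN1. In the means of libraries with R minus libraries without R, dropping a pair gave -0.28 to 0.19 for TERF2, -0.05 to 0.15 for TINF2 and -0.87 to 0.42 for TEN1, and median-ratio scaling gave 0.16 for TERF2 and 0.081 for TEN1, with 1 member in place of 3 not overlapping. The share of all genes was not counted under the pair settings that follow, so a change in these member counts has no background beside it. With a pseudocount of 0.1, members at 2-fold numbered 2 in R against Control, 3 in TR against T, 1 in GR against G and 2 in G against Control. At 1.5-fold there were 1 in TR against R, 2 in GR against G and 2 in T against Control. Median-ratio scaling gave 2 at 2-fold in TR against T and 1 in GR against R. Removing the GC and length trend gave 0 in each of these at 2-fold and 2 in GR against G at 1.5-fold. With TEN1 and TEN1-CDK3 summed (added after seeing the data), 0 were at 2-fold in R against Control, TR against T, T against Control and G against Control and 1 in GR against R, and at 1.5-fold 0 in GR against G and T against Control and 1 in G against Control. TEN1 then stood at 0.14 for R and at 0.09, -0.156 and 0.057 in R against Control, TR against T and T against Control. TINF2 over TERF1 stopped overlapping with pseudocounts of 0.1 and 0 (exact permutation p = 0.1). The cause of these shifts was not tested.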
